A study of Mus musculus with 15 samples.

Results

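The histone genes of the embryonic mouse lens are described here across 4 stages of development and in the whole embryo. They were taken by symbol: every gene whose name begins with Hist1h, Hist2h, Hist3h or Hist4h (replication-type histones), or with H2af, H3f3 or H1f (variant histones), with assembled transcripts antisense to a reference gene left out and the values of a gene's transcripts summed. This gave 26 histone genes of 14615 gene symbols in the table, 15 of them replication-type and 11 variant. The replication-type genes were Hist1h1c, Hist1h1e, Hist1h2aj, Hist1h2bc, Hist1h2be, Hist1h2bg, Hist1h4c, Hist1h4h, Hist1h4i, Hist1h4k, Hist2h2aa1, Hist2h2be, Hist2h3c2, Hist3h2a and Hist3h2ba. The variant genes were H1f0, H1fx, H2afj, H2afv, H2afx, H2afy, H2afy2, H2afz, H3f3a, H3f3b and the H3f3a pseudogene H3f3a-ps2.

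RNA was sequenced from microdissected lenses of wild-type C57BL/6NTac mice at 4 embryonic stages, the earliest E10.5 and then every 2 days up to E16.5, and from whole embryos of the same strain and genotype as the reference. Each group had 3 biological replicates, so that 15 libraries were compared. The lenses pooled in a replicate numbered 50, 29, 18 and 17, from the earliest stage to the latest. The whole-body libraries carry the age E10.5 to E12.5, and how embryos of these ages were combined is not given in the sources used here. No group carried a mutation or received a treatment. Comparisons of lens with whole body therefore differ in tissue, and for the later stages also in age, and these cannot be told apart.

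Histones package DNA into nucleosomes: H2A, H2B, H3 and H4 form the core particle, and linker histone H1 binds where DNA enters and leaves it. Replication-type genes lie in clusters, are transcribed mainly in S phase, and give messages that usually end after a conserved stem-loop, bound by the protein SLBP, in place of a poly(A) tail. Variant genes lie apart, usually give polyadenylated messages and are used in cells that divide or not; H2A.Z, H2A.X, macroH2A, H3.3 and H1.0 are examples. In the embryonic lens, cells of the posterior vesicle leave the cell cycle and elongate into primary fibre cells, epithelial cells at the equator later give secondary fibres, and fibres in the end lose their nuclei.

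The values are FPKM, a fragment count divided by transcript length and by the size of the library. The kind of RNA selection used for the libraries is not given in the sources used here, and a selection for poly(A) would leave most stem-loop-ended messages out. The genome annotation used for names (GENCODE vM21) lists 70 replication-type and 21 variant symbols of the same name pattern; those beyond the 26 were not analysed here. Of the 15 replication-type genes, 10 lie on chromosome 13, 3 on chromosome 3 and 2 on chromosome 11.

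The stem-loop that ends replication-type messages was searched for as a 6-base stem beginning with GG, a 4-base loop TTTN and the complementary stem, on the sense strand of the annotated transcript nearest to each gene's most abundant deposited transcript. It was found in 10 of the 15 replication-type genes and in 1 variant gene, H2afx. The 11 matches are shown with 5 bases on either side because they mark where a replication-dependent message would end; capitals mark the stem and loop, and coordinates are those of mm10, each within 1 exon.
Hist1h1c, chr13:23739507-23739532 (plus strand): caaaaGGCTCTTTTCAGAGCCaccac
Hist1h1e, chr13:23621777-23621802 (minus strand): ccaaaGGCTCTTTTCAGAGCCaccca
Hist2h2aa1, chr3:96246027-96246052 (plus strand): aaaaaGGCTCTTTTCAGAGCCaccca
Hist3h2a, chr11:58955167-58955192 (plus strand): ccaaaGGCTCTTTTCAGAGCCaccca
Hist1h2bg, chr13:23571838-23571863 (plus strand): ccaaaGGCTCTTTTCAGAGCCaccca
Hist3h2ba, chr11:58949344-58949369 (plus strand): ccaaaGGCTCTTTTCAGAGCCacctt
Hist2h3c2, chr3:96238480-96238505 (minus strand): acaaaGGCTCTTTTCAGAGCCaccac
Hist1h4c, chr13:23698084-23698109 (minus strand): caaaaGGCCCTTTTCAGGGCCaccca
Hist1h4h, chr13:23531453-23531478 (plus strand): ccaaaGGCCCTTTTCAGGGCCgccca
Hist1h4i, chr13:22040961-22040986 (minus strand): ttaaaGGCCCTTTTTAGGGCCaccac
H2afx, chr9:44335235-44335260 (plus strand): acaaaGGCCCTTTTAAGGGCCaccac

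The annotated transcripts did not stop at this element. Past the last base of the stem, the annotated Hist3h2a transcript ran on for 1643 bases, that of Hist1h1e for 1153, that of Hist1h1c for 840, that of Hist1h4c for 454, that of Hist2h3c2 for 377, that of Hist1h4i for 330, that of Hist3h2ba for 169 and that of Hist1h2bg for 155. The exceptions were Hist1h4h with 46 bases and Hist2h2aa1 with 35. With the longest coding transcript of each annotated replication-type gene as the unit, 11 of 14 genes in the table held the stem-loop, with a median of 377 bases after it; of the 53 coding genes not analysed here 32 held it, with a median of 48.5 bases after it. Among 58696 other protein-coding transcripts 0.0818% had a match. The chosen transcripts of Hist1h2bc, Hist1h2be, Hist2h2be, Hist1h4k and Hist1h2aj had no match to these letters, nor had those of the other variant genes.

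Several deposited transcripts were also longer than the annotated ones: 2956 bases against 586 for Hist2h2aa1, 5711 against 1020 for Hist2h3c2, 3922 against 312 for Hist1h4k, 2659 against 618 for Hist1h2bg and 1202 against 820 for Hist1h4c. Those of Hist1h1e, at 748 bases against 1930, and Hist1h2bc, at 736 against 1156, were shorter. The deposited Hist1h1e locus, on the minus strand, ends at 23621755, close past its stem-loop at 23621777 to 23621802, so that most of the 1153 bases given above lie in the annotated transcript alone. Histone genes lie close together, and 4 of the 15 replication-type loci in the table overlap other annotated histone genes. The Hist1h2bg locus overlaps Hist1h2ae and Hist1h2bf, the Hist2h2aa1 locus Hist2h3c1, and the Hist2h2be locus Hist2h2ab and Hist2h2ac. The Hist1h2be locus runs to 23621124. It overlaps part of annotated Hist1h1e and does not reach the deposited Hist1h1e locus. Reads in the overlapping stretches, and of near-identical copies elsewhere in the clusters, cannot be told apart in these values. Each replication-type value is thus that of a locus.

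Promoter sequence, the 250 bases before the transcription start, was found in RefSeq (GRCm38.p6) for 21 of the 26 genes; H2afx, H3f3a-ps2, Hist1h2aj, Hist1h2bc and Hist2h2be had no entry. Searched on both strands were CCAAT, the box bound by NF-Y, TATAAA, the TATA box, and ATTTGCA, the first 7 letters of the octamer of H2B promoters, which OCT1 binds. None of the 3 contains another. Counted by gene, with either promoter of Hist1h2be taken, CCAAT was present for 8 of 12 replication-type and 5 of 9 variant genes; counted by promoter, it was present in 33.8% of all 32851 of the same length. TATAAA was present in 5 of 12 and 1 of 9 (12.4% of all), and ATTTGCA in 3 of 12 and 1 of 9 (3.56% of all). A match describes the letters and is no evidence that a factor binds. Shown are 3 genes that rose strongly in the lens, linker histone gene Hist1h1c and the neighbouring pair Hist3h2ba and Hist3h2a, and H3f3b, which fell; capitals mark the motifs on either strand.
Hist1h1c, chr13:23738557-23738806 (plus strand): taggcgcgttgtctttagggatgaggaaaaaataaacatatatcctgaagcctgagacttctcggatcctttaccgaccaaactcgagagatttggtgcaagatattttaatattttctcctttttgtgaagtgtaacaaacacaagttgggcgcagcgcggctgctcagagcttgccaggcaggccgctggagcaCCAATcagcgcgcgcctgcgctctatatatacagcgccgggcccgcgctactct
Hist3h2ba, chr11:58948661-58948910 (plus strand): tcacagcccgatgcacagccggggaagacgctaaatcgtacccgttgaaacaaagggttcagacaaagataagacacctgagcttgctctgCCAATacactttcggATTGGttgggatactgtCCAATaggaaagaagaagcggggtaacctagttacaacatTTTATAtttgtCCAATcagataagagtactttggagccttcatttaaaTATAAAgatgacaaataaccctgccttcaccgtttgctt
Hist3h2a, chr11:58954435-58954684 (plus strand): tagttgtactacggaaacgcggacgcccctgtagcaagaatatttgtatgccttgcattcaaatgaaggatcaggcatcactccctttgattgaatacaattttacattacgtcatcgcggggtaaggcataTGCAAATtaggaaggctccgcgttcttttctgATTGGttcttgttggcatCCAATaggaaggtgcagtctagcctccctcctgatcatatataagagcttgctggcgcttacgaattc
H3f3b, chr11:116024505-116024754 (minus strand): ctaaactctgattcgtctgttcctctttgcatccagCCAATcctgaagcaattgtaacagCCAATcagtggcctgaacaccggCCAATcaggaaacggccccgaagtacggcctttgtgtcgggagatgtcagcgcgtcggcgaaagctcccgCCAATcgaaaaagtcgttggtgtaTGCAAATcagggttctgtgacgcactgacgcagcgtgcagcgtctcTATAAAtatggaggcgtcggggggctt

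H3f3b held all 3 motifs, Hist3h2ba held CCAAT and TATAAA, Hist3h2a held CCAAT and the octamer letters, and Hist1h1c held CCAAT alone. The motif letters thus occurred on both sides of the change described next.

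The 15 replication-type loci in the table read low in the lens at E10.5 and in the whole body, and highest from E14.5. Their summed FPKM was 69.7, 70.8 and 70.8 in the libraries at E10.5, 221, 266 and 292 at E12.5, 479, 557 and 533 at E14.5, 529, 525 and 505 at E16.5, and 41.0, 40.3 and 43.9 in the whole body. The group means were 70.4 ± 0.592, 260 ± 35.8, 523 ± 40.02, 520 ± 12.8 and 41.7 ± 1.92 (SD, n = 3). The variant genes were summed the same way, and gave 2670 ± 282, 2038 ± 174, 1860 ± 80.2 and 1704 ± 75.2 over the lens stages in order and 2481 ± 138 in the whole body. Replication-type genes thus made up 2.59%, 11.4%, 21.9% and 23.4% of the summed histone FPKM over the lens stages in order, and 1.66% in the whole body. These sums are descriptions of the listed genes, with no test. They do not measure all replication-type messages of a tissue, since other annotated symbols are not included and the RNA selection is not known. In bulk tissue, fewer cells of a type and less RNA per cell cannot be told apart.

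**Figure D1:**
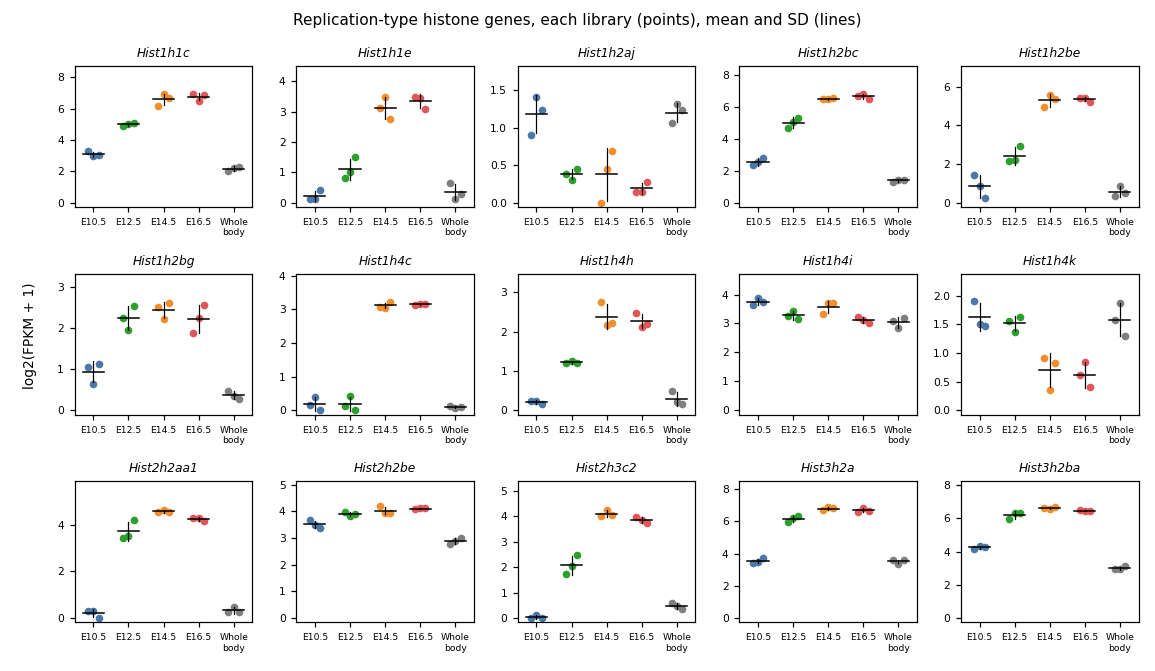
Log2(FPKM + 1) of the 15 replication-type histone genes in each library (points), with the group mean and SD (lines), by lens stage and in the whole body. 12 genes sit higher at E16.5 than at E10.5, and Hist1h2aj, Hist1h4i and Hist1h4k sit lower.

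Between E10.5 and E16.5, 12 of the 15 replication-type genes rose and 3 fell (limma on log2(FPKM + 1), Benjamini-Hochberg adjusted p under 0.05). In that comparison 73.9% of the 14532 genes tested were called, 37.2% higher and 36.7% lower, so a call alone is common here. The median log2 fold change of the replication-type genes was 2.96, and that of all genes tested was -0.011. A limit applies to these counts, to the sums above, and to the counts and single-gene tests below. The deposited transcripts all reach 1 FPKM in at least 2 libraries, and 8 of the 15 genes did not reach it in every E10.5 library, so genes that entered the table through the late lens had to differ. Of the other 7 genes, 5 rose and 2 fell, with a median log2 fold change of 2.20 in place of 2.96. The limit holds for falls too. Hist1h4k, among these 2, and Hist1h2aj reached 1 FPKM in no library of E14.5 or E16.5. They entered the table through earlier lens or whole-body libraries, so the 7 genes are not all free of the limit.

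The linker histone genes rose. Hist1h1c, which codes for H1.2, read 8.79, 6.86 and 7.13 FPKM at E10.5, 28.4, 31.7 and 33.4 at E12.5, 72.1, 120 and 100 at E14.5, 121, 89.3 and 117 at E16.5, and 3.02, 3.71 and 3.98 in the whole body. No E10.5 library reached the E12.5 level and no E12.5 library the E14.5 level. The log2 fold change from E10.5 to E16.5 was 3.67 ± 0.17 (SE; adjusted p = 6.39e-11). Hist1h1e, which codes for H1.4, read 0.09, 0.09 and 0.34 FPKM at E10.5, 0.78, 1 and 1.81 at E12.5, 7.58, 10.1 and 5.75 at E14.5 and 10.1, 10.02 and 7.46 at E16.5. Its whole-body libraries read 0.56, 0.08 and 0.23, overlapping with those of E10.5, and its log2 fold change over the stages was 3.12 ± 0.22 (adjusted p = 7.34e-09).

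Among the H2A genes, Hist3h2a and Hist2h2aa1 rose and the annotated pseudogene Hist1h2aj fell. Hist3h2a (chromosome 11, 58954685 to 58956830) read 9.91, 10.02 and 12.1 FPKM at E10.5, 61.0, 73.5 and 79.4 at E12.5, 102, 117 and 112 at E14.5, 96.0, 112 and 100 at E16.5 and 10.95, 9.42 and 10.99 in the whole body. E10.5 lens and whole body overlapped, and all later lens libraries stood above both. Hist2h2aa1 read 0.23, 0.23 and 0 FPKM at E10.5 and 0.18, 0.40 and 0.19 in the whole body, against 9.95, 10.48 and 17.2 at E12.5, 22.5, 24.1 and 22.3 at E14.5 and 18.6, 18.5 and 17.0 at E16.5. Its log2 fold change from E10.5 to E12.5 was 3.52 ± 0.18 (adjusted p = 9.21e-10). Hist1h2aj read 0.87, 1.66 and 1.35 FPKM at E10.5, 0.31, 0.24 and 0.36 at E12.5, 0, 0.37 and 0.61 at E14.5, 0.11, 0.11 and 0.21 at E16.5 and 1.08, 1.48 and 1.35 in the whole body. It was low everywhere, and fell by 0.99 on the log2 scale from E10.5 to E16.5 (SE 0.17, adjusted p = 9.27e-05). The limit given above applies to this fall, since Hist1h2aj reached 1 FPKM in no lens library from E12.5 on.

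All 5 H2B genes rose from E10.5 to E16.5. With only its transcript most abundant over all 15 libraries, which was not the larger at E16.5, Hist2h2be was at -1.37 and not called. Hist1h2bc (chromosome 13, 23684199 to 23692908) read 4.08, 4.83 and 6.12 FPKM at E10.5, 24.1, 32.4 and 38.9 at E12.5, 87.4, 87.6 and 91.3 at E14.5, 99.2, 113 and 89.1 at E16.5 and 1.49, 1.72 and 1.70 in the whole body. Its groups did not overlap except E14.5 with E16.5, and its log2 fold change from E10.5 to E16.5 was 4.08 ± 0.16 (adjusted p = 9.17e-12). Hist1h2be read 1.68, 0.80 and 0.21 FPKM at E10.5, 3.41, 3.58 and 6.64 at E12.5, 29.7, 46.3 and 40.2 at E14.5, 41.1, 41.3 and 36.5 at E16.5 and 0.28, 0.84 and 0.43 in the whole body. Most of its FPKM was that of a 2099-base transcript annotated as processed, with no coding sequence. This read 0.90 ± 0.74 FPKM at E10.5 and 36.3 ± 2.96 at E16.5 (SD, n = 3). The coding transcript, of 2433 bases, read 0 at E10.5 and 3.38 ± 1.09 at E16.5. The rise of the gene's sum, 4.49 ± 0.28 (log2, adjusted p = 1.61e-09), came mostly between E12.5 and E14.5. Of the 26 genes it was the largest on the log2(FPKM + 1) scale only: for genes near or below 1 FPKM at E10.5 the added 1 bears on the order, and with a pseudocount of 0.1 the rises of Hist2h2aa1 and Hist2h3c2 were larger. Hist3h2ba (chromosome 11, 58948920 to 58949533), the neighbour of Hist3h2a, read 16.9, 19.3 and 18.6 FPKM at E10.5, 60.7, 80.7 and 79.8 at E12.5, 97.2, 91.8 and 100 at E14.5, 88.7, 87.6 and 85.1 at E16.5 and 6.74, 6.59 and 7.61 in the whole body. It differed between E10.5 lens and whole body already, by a log2 fold change of 1.27 ± 0.10 (adjusted p = 4.62e-08).

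Hist1h2bg and Hist2h2be rose less. Hist1h2bg read 1.07, 0.57 and 1.17 FPKM at E10.5, and 2.66 to 5.03 in the 9 later lens libraries. Hist2h2be read 11.6, 10.3 and 9.43 FPKM at E10.5, 14.6, 13.2 and 13.8 at E12.5, 17.3, 14.48 and 14.3 at E14.5, 15.9, 16.3 and 16.3 at E16.5 and 5.92, 6.30 and 7.03 in the whole body. Its log2 fold change from E10.5 to E16.5 was 0.59 ± 0.12 (adjusted p = 0.000308) and became -1.37 (adjusted p = 0.15) when each gene was represented by its most abundant transcript alone. For Hist2h2be that was a 2620-base entry, at 9.95, 10.3 and 8.91 FPKM at E10.5 and 7.27, 0 and 7.66 at E16.5. A 2924-base entry of the same reference transcript read 1.68, 0 and 0.52 at E10.5 and 8.63, 16.3 and 8.63 at E16.5. It had the larger mean at E14.5 and E16.5.

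The only replication-type H3 gene in the table, Hist2h3c2, which codes for H3.2, read 0, 0.09 and 0 FPKM at E10.5, 2.30, 3.07 and 4.54 at E12.5, 14.9, 18.2 and 15.8 at E14.5, 14.6, 13.3 and 12.3 at E16.5 and 0.49, 0.37 and 0.27 in the whole body. Its log2 fold change from E10.5 to E16.5 was 3.80 ± 0.17 (adjusted p = 6.38e-11). This quantity is on the log2(FPKM + 1) scale and understates the change of a gene listed near 0.

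The H4 genes did not move together. Hist1h4c read 0.12, 0.33 and 0 FPKM at E10.5, 0.10, 0.35 and 0 at E12.5, 7.46, 7.27 and 8.27 at E14.5, 7.80, 7.88 and 7.99 at E16.5 and 0.10, 0.05 and 0.08 in the whole body. The step from E12.5 to E14.5, a log2 fold change of 2.92 ± 0.14 (adjusted p = 3.01e-09), held most of its rise, and E10.5 and E12.5 overlapped. Hist1h4h read 0.11 to 0.19 FPKM at E10.5, 1.30 to 1.41 at E12.5, and 3.38 to 5.78 in the 6 libraries of E14.5 and E16.5. Hist1h4i read 11.5, 13.7 and 12.5 FPKM at E10.5, 8.48, 9.89 and 7.89 at E12.5, 9.03, 12.1 and 11.9 at E14.5, 8.43, 7.66 and 7.15 at E16.5 and 7.45, 6.19 and 8.23 in the whole body. Its log2 fold change from E10.5 to E16.5 was -0.63 ± 0.15 (adjusted p = 0.00119); its transcript carries the stem-loop shown above. Hist1h4k read 2.75, 1.84 and 1.76 FPKM at E10.5, 1.94, 1.58 and 2.10 at E12.5, 0.89, 0.28 and 0.78 at E14.5, 0.53, 0.79 and 0.32 at E16.5 and 1.97, 2.67 and 1.47 in the whole body. It fell by 1.01 on the log2 scale (SE 0.20, adjusted p = 0.000284), with the fall between E12.5 and E14.5. The limit given above applies to this fall, since Hist1h4k reached 1 FPKM in no library of E14.5 or E16.5. All 4 genes code for the same type of core histone.

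Most of the rise came before E14.5. From E10.5 to E12.5, 11 replication-type genes rose and 2, Hist1h2aj and Hist1h4i, fell; 55.5% of all genes tested were called, 29.5% higher and 26% lower. Of the genes that rose, Hist1h1e, Hist1h2be, Hist1h2bg, Hist1h4h, Hist2h2aa1 and Hist2h3c2 did not reach 1 FPKM in every E10.5 library. The limit given above applies to them, and to the fall of Hist1h2aj, which reached 1 FPKM in no E12.5 library. From E12.5 to E14.5, 10 rose and 1, Hist1h4k, fell, where 43.7% of genes were called, 21.2% higher and 22.4% lower. Of the 10, Hist1h1e and Hist1h4c did not reach 1 FPKM in every E12.5 library, and the same limit applies. It applies as well to the fall of Hist1h4k, which reached 1 FPKM in no E14.5 library. From E14.5 to E16.5, limma called 0 of the 15 in either direction, where 10% of genes were called, 5.97% higher and 4.03% lower. At an unadjusted p under 0.05, 1 gene was lower in that last interval and 0 were higher, and without the mean-variance trend limma called 1 lower and 0 higher. The gene was Hist1h4i at the unadjusted threshold, with an adjusted p of 0.0672. The lowest and highest log2 fold changes in the last interval were -0.45, for Hist1h4i, and 0.23, for Hist1h1e.

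Against the whole body, the lens at E10.5 had 6 replication-type genes higher and 0 lower: Hist3h2ba, Hist1h2bc, Hist1h1c, Hist1h4i, Hist2h2be and Hist1h2bg. In that comparison limma called 55.7% of all genes, 24.6% higher and 31.2% lower. At an unadjusted p under 0.05 the counts were 6 higher and 1 lower. At E12.5, 11 were higher and Hist1h2aj was lower (69.4% of genes called, 32.3% higher and 37.1% lower). At E14.5, 13 were higher and 2, Hist1h2aj and Hist1h4k, were lower (78.3% of genes called, 35.7% higher and 42.6% lower). At E16.5, 12 were higher and the same 2 were lower (80.2% of genes called, 36.8% higher and 43.4% lower). From E12.5 on, Hist1h2bc had log2 fold changes of 3.61 ± 0.16, 5.09 ± 0.16 and 5.26 ± 0.16 in order of age. Under quantile normalization Hist1h2aj and Hist1h4k were not below the whole body at E14.5 or E16.5. The 4 comparisons share the same 3 whole-body libraries. Hist1h1e, Hist1h2be, Hist1h2bg, Hist1h4c, Hist1h4h, Hist2h2aa1 and Hist2h3c2 reached 1 FPKM in no whole-body library. They entered the table through the lens, so the limit given above applies to their higher calls. The other genes called higher reached 1 FPKM in all 3 whole-body libraries. Hist1h2aj and Hist1h4k reached 1 FPKM in no library of E14.5 or E16.5, so the limit applies to their lower calls there. Hist1h2aj reached it in no E12.5 library either, so the limit also applies to its lower call at E12.5.

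The variant genes took another course. Between E10.5 and E16.5, 6 of the 11 fell, 3 rose and 2 were not called, with a median log2 fold change of -0.59, where 36.7% of all genes tested fell and 37.2% rose. The 3 that rose were the pseudogene H3f3a-ps2, H2afj and H1f0. With the crystallins left out and totals made equal, 1 variant gene rose in place of 3, and 7766 of 14518 genes were lower. H1f0 was then at -0.20 and H2afj was not called, which leaves the pseudogene. H3f3a-ps2 was below 1 FPKM in every E10.5 and whole-body library, so the limit given above for replication-type genes applies to its calls. The plot of single genes from E10.5 to E16.5 shows the classes side by side.

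**Figure D2:**
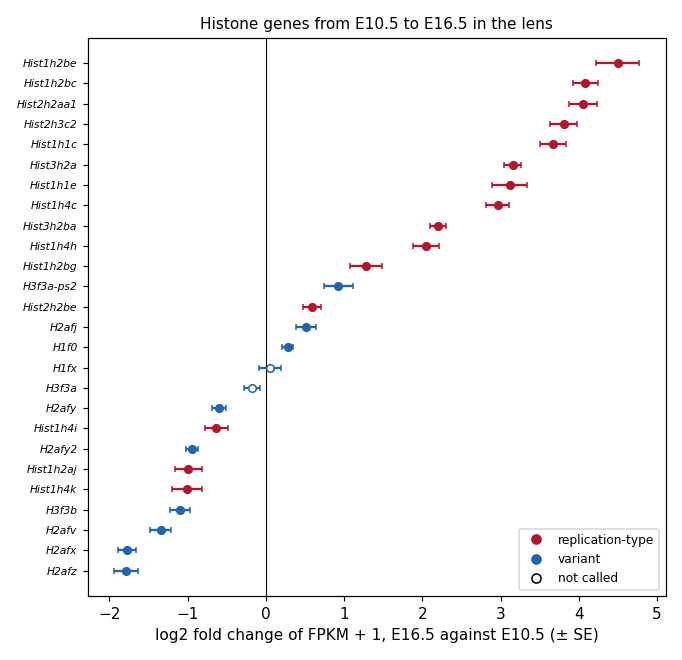
Log2 fold change of FPKM + 1 from E10.5 to E16.5 for each of the 26 histone genes, with its SE (bars); red, replication-type; blue, variant; open points were not called. Replication-type genes run from -1.01 to 4.49 and variant genes from -1.78 to 0.92.

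The H2A.Z genes fell. H2afz, the main H2A.Z gene (chromosome 3, 137864487 to 137866922), read 294, 359 and 331 FPKM at E10.5, 229, 186 and 148 at E12.5, 165, 115 and 131 at E14.5, 93.5, 86.8 and 103 at E16.5 and 251, 211 and 207 in the whole body. E12.5 and E14.5 overlapped, and every E16.5 library was below every other lens library. The log2 fold change over the stages was -1.78 ± 0.15 (adjusted p = 5.05e-08), and E10.5 stood above the whole body by 0.55 ± 0.15 (adjusted p = 0.00591). H2afv, which codes for the second H2A.Z protein, read 126, 175 and 150 FPKM at E10.5, 116, 105 and 80.6 at E12.5, 80.9, 67.0 and 81.6 at E14.5, 58.6, 53.2 and 63.4 at E16.5 and 138, 126 and 139 in the whole body. It fell by 1.34 on the log2 scale (SE 0.13, adjusted p = 3.18e-07).

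H2afx codes for H2A.X, the H2A that is phosphorylated around DNA breaks, and is the variant whose message carries the stem-loop. It read 172, 185 and 191 FPKM at E10.5, 118, 116 and 93.4 at E12.5, 67.7, 75.7 and 87.7 at E14.5, 51.8, 47.2 and 59.8 at E16.5 and 120, 105 and 121 in the whole body. No 2 lens stages overlapped. The log2 fold change from E10.5 to E16.5 was -1.77 ± 0.11 (adjusted p = 2.14e-09), and each of the 3 steps was called: -0.75 ± 0.11, -0.50 ± 0.11 and -0.53 ± 0.11.

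The macroH2A genes, whose proteins carry a large extra domain and are known from silent chromatin, differed in course. H2afy, for macroH2A1, read 280, 338 and 313 FPKM at E10.5, 278, 285 and 281 at E12.5, 201, 237 and 246 at E14.5, 193, 194 and 229 at E16.5 and 268, 252 and 255 in the whole body, a log2 fold change of -0.59 ± 0.09 over the stages (adjusted p = 2.3e-05). H2afy2, for macroH2A2, read 241, 273 and 261 FPKM at E10.5, 135, 125 and 118 at E12.5, 87.2, 97.7 and 105 at E14.5, 128, 142 and 133 at E16.5 and 221, 197 and 208 in the whole body. It had the lowest level at E14.5 and rose again by 0.47 ± 0.08 at E16.5 (adjusted p = 0.00195), the only histone gene called higher in that interval. H2afj, for H2A.J, read 13.3, 11.02 and 13.6 FPKM at E10.5, 13.1, 12.7 and 12.2 at E12.5, 14.2, 15.6 and 17.1 at E14.5, 16.0, 19.3 and 20.4 at E16.5 and 12.6, 10.6 and 10.7 in the whole body. Its rise of 0.52 ± 0.12 (log2, adjusted p = 0.00157) was 0.07, not called, when totals were made equal without the crystallins, the abundant structural proteins of the lens.

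**Figure D3:**
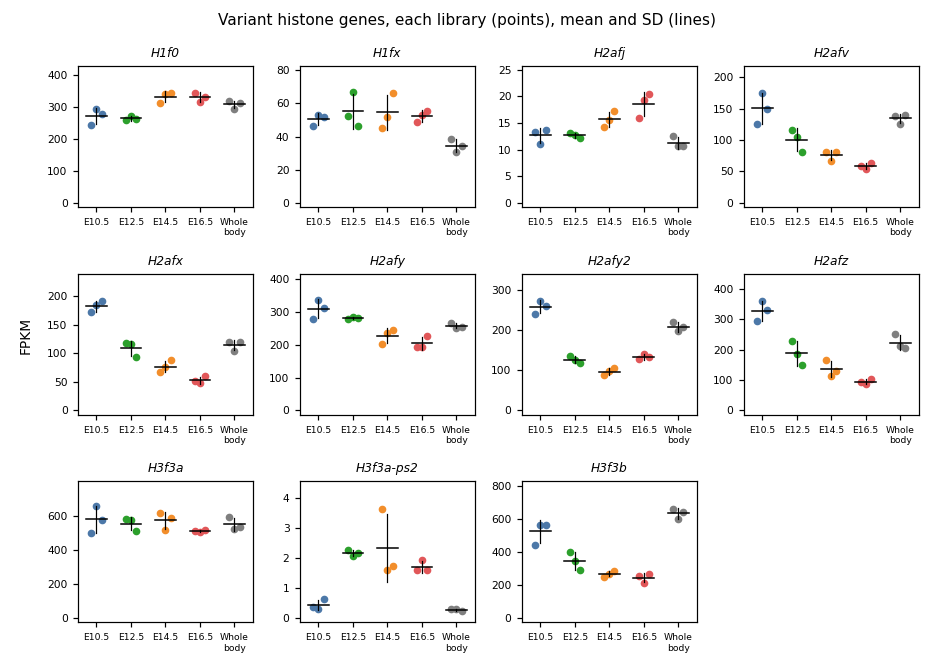
FPKM of the 11 variant histone genes in each library (points), with the group mean and SD (lines), by lens stage and in the whole body. H2afz, H2afv, H2afx and H3f3b step down over the lens stages, H3f3a stays between 501 and 659 in the lens, and H2afy2 is lowest at E14.5.

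The paired H3.3 genes, H3f3a and H3f3b, code for the same protein, and their messages differed in course. H3f3a read 501, 659 and 573 FPKM at E10.5, 578, 573 and 508 at E12.5, 614, 517 and 583 at E14.5, 511, 503 and 515 at E16.5 and 593, 521 and 534 in the whole body. Its log2 fold change from E10.5 to E16.5 was -0.17 ± 0.10 and was not called (adjusted p = 0.139). H3f3b read 443, 567 and 566 FPKM at E10.5, 400, 345 and 291 at E12.5, 251, 269 and 282 at E14.5, 258, 212 and 265 at E16.5 and 664, 600 and 644 in the whole body. It fell by 1.10 on the log2 scale (SE 0.12, adjusted p = 1.19e-06), and all lens libraries stood below all whole-body libraries. H3f3a was the histone gene with the highest summed FPKM in each lens stage, and H3f3b in the whole body.

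The log2 ratio of H3f3b to H3f3a in single libraries was -0.18, -0.21 and -0.02 at E10.5, -0.53, -0.73 and -0.81 at E12.5, -1.29, -0.94 and -1.05 at E14.5, -0.99, -1.25 and -0.96 at E16.5 and 0.16, 0.20 and 0.27 in the whole body. A ratio within a library does not depend on that library's scaling. E14.5 and E16.5 overlapped, and the other groups did not. The pseudogene H3f3a-ps2 was listed at 0.37, 0.28 and 0.62 FPKM at E10.5, 2.25, 2.06 and 2.17 at E12.5, 3.61, 1.58 and 1.74 at E14.5, 1.58, 1.91 and 1.58 at E16.5 and 0.30, 0.28 and 0.23 in the whole body. Its sequence derives from H3f3a, so reads can be shared between them, and an annotated antisense gene, H3f3aos, overlaps H3f3a, whose reads could be told apart only by strand.

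The transcripts behind these sums also shifted. Of H3f3a, the 724-base transcript made up 51.4% ± 3.13, 55.1% ± 2.40, 54.1% ± 0.480 and 59.0% ± 0.700 of the gene's FPKM over the lens stages in order, and 25.7% ± 0.453 in the whole body (SD, n = 3). The 888-base transcript made up 47.7%, 43.5%, 44.4%, 39.8% and 72.3% in the same order. Of H3f3b, an 874-base transcript annotated as processed, with no coding sequence, made up 23.3% ± 0.491, 13.6% ± 1.96, 13.4% ± 1.28 and 19.4% ± 1.79 over the same stages, against 0.263% ± 0.0859 in the whole body. Of H2afz, the 1069-base coding transcript made up 24.6% ± 4.35, 51.7% ± 4.41, 58.3% ± 1.38 and 45.0% ± 7.22 over the stages, and 53.0% ± 4.03 in the whole body. Directions that rest on the sum of transcripts can therefore change. The transcript most abundant over all 15 libraries was the 1069-base one of H2afz and the 888-base one of H3f3a. With it alone, H2afz at E10.5 was below the whole body (log2 fold change -0.56), and H3f3a was below it at E10.5, E12.5 and E14.5 (-0.53, -0.72 and -0.65). Within the lens the 724-base H3f3a transcript was the larger, at 296, 305, 309 and 300 FPKM by stage against 141 in the whole body. At E10.5 a 349-base H2afz transcript made up 25.9%, more than the 1069-base one. No test was made of the shares.

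**Figure D4:**
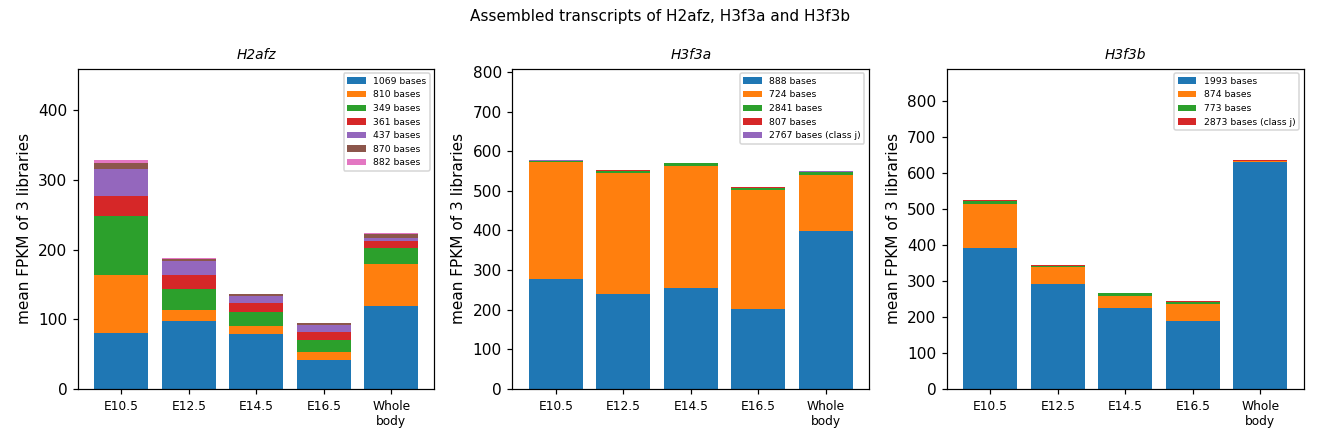
Mean FPKM of each deposited transcript of H2afz, H3f3a and H3f3b (stacked bars, 3 libraries a group), by lens stage and in the whole body; the legend gives transcript lengths, and class j marks an assembled transcript with a new splice junction. The 724-base part of H3f3a is larger in every lens stage than in the whole body, and the 874-base part of H3f3b is seen in the lens.

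On the deposited FPKM the linker variants changed little over the lens stages. H1f0, for H1.0, the linker histone typical of differentiated cells, read 246, 295 and 280 FPKM at E10.5, 259, 273 and 263 at E12.5, 313, 343 and 346 at E14.5, 346, 316 and 333 at E16.5 and 319, 296 and 314 in the whole body. Its log2 fold change from E10.5 to E16.5 of 0.28 ± 0.07 (adjusted p = 0.00297) turned to -0.28 under quantile normalization and to -0.20 with totals made equal without the crystallins. H1fx, for H1X, read 46.2, 52.9 and 51.8 FPKM at E10.5, 52.6, 66.8 and 46.4 at E12.5, 45.4, 51.9 and 66.3 at E14.5, 48.6, 52.9 and 55.6 at E16.5 and 38.5, 30.9 and 34.1 in the whole body. Every lens library stood above every whole-body library, the lens stages overlapped, and the log2 fold change over the whole body was 0.53 ± 0.14 at E10.5 (adjusted p = 0.00479) and 0.59 ± 0.14 at E16.5 (adjusted p = 0.00129). From E10.5 to E16.5 H1fx was at 0.06, not called, and at -0.41 with totals made equal without the crystallins (limma, adjusted p = 0.0177). With that scaling, 1 variant gene in place of 3, H1fx among the 3, was higher than the whole body at E16.5.

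By interval, 5 variant genes fell and 1 rose from E10.5 to E12.5, 6 fell and 1, H1f0, rose from E12.5 to E14.5, and 2, H2afx and H2afz, fell and 1, H2afy2, rose from E14.5 to E16.5. The gene that rose first was H3f3a-ps2. Over the same intervals 26%, 22.4% and 4.03% of all genes tested fell, and 29.5%, 21.2% and 5.97% rose. Under quantile normalization 8 variant genes fell over the first interval, and without the crystallins the rise of H1f0 over the second was not called. The fall from E12.5 to E14.5 was called for 3 genes in place of 6 when E12.5 replicate 1, E12.5 replicate 2 or E14.5 replicate 2 was left out. Against the whole body, 5 variant genes were higher and 1 lower at the earliest stage; the later stages had, in order, 2, 3 and 3 higher and 4, 5 and 6 lower. Of all genes tested, 24.6% were higher and 31.2% lower at the earliest stage, and 32.3%, 35.7% and 36.8% higher and 37.1%, 42.6% and 43.4% lower at the later ones. Without the crystallins 1 variant gene in place of 3 was higher at E14.5 and at E16.5, and 8 in place of 5 were lower at E14.5. The one lower at E10.5 was H1f0, at an adjusted p of 0.0488. H3f3b was the lowest of the class in each later comparison, at -0.89 ± 0.12, -1.25 ± 0.12 and -1.38 ± 0.12 on the log2 scale.

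Genes that make, carry and place histones are given beside them, from 4 lists. Of 19 genes for histone transcription and message processing, 11 fell and 1 rose from E10.5 to E16.5, with a median log2 fold change of -0.34, where 36.7% of all genes tested fell and 37.2% rose. The number that fell was 16 under quantile normalization and 18 without the crystallins. Slbp, whose protein binds the stem-loop printed above, read 85.2, 86.7 and 78.2 FPKM at E10.5, 52.8, 42.6 and 37.8 at E12.5, 31.4, 28.9 and 42.0 at E14.5, 23.1, 24.6 and 27.1 at E16.5 and 110, 101 and 102 in the whole body. It fell by 1.71 on the log2 scale (SE 0.13, adjusted p = 1.56e-08) over the stages in which the replication-type sum rose. Zfp473, a zinc finger protein of the U7 processing complex, fell by 1.66 (SE 0.36, adjusted p = 0.000639). Npat, the S-phase coactivator of histone clusters, fell by 0.22 (SE 0.08, adjusted p = 0.0287). Cpsf2, a subunit of the factor that cuts polyadenylated and histone messages, rose by 0.75 ± 0.09 (adjusted p = 3.49e-06).

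Of 13 chaperones that carry newly made H3-H4 and H2A-H2B to replicating DNA, 8 fell and 3 rose, with a median of -0.73, beside the same 36.7% and 37.2% of all genes. Chaf1a and Chaf1b, subunits of the chromatin assembly factor CAF-1, fell by 2.59 (SE 0.15, adjusted p = 1.07e-09) and 2.56 (SE 0.16, adjusted p = 1.48e-09). The H3-H4 chaperone gene Asf1b fell by 2.44 (SE 0.22, adjusted p = 8.48e-08). Nap1l4, an H2A-H2B chaperone, went from 222 ± 15.9 FPKM at E10.5 to 2260 ± 136 at E16.5 (SD, n = 3), a log2 fold change of 3.34 ± 0.14 (adjusted p = 3.23e-11). Its relative Nap1l1 and the importin Ipo4 were the other genes that rose, Nap1l1 by 1.85 ± 0.12 (adjusted p = 4.03e-09).

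**Figure D5:**
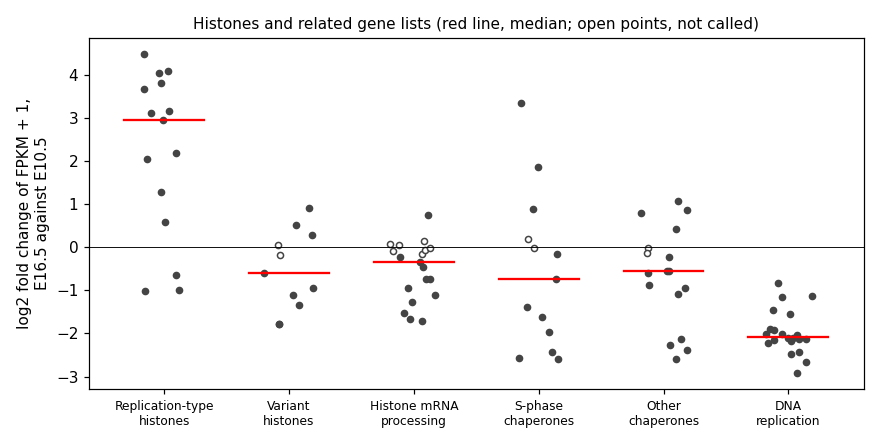
Log2 fold change of FPKM + 1 from E10.5 to E16.5 for each gene of 6 lists: both histone classes, histone message processing, chaperones tied to replication, other chaperones and deposition factors, and DNA replication genes. Red lines are medians, at 2.96, -0.59, -0.34, -0.73, -0.54 and -2.09, and open points were not called.

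Of 17 genes for deposition outside replication, 11 fell and 4 rose, with a median of -0.54, again beside 36.7% and 37.2% of all genes. Hira, the core of the H3.3 chaperone complex, fell by 0.88 (SE 0.07, adjusted p = 1.71e-08), and its partners Ubn1 and Ubn2 rose by 0.86 ± 0.10 and 1.08 ± 0.16. Cenpa, the centromeric H3, fell by 2.59 (SE 0.19, adjusted p = 7.96e-09), and Mis18a, needed to load it, by 2.37 (SE 0.17, adjusted p = 9.08e-09). Asf1a had a log2 fold change of -0.01 ± 0.09 and was not called (adjusted p = 0.948). Of 22 tested genes of DNA replication and S phase, limma called 22 lower and 0 higher, with a median of -2.09, beside those shares; 0 were higher at an unadjusted p under 0.05 too. Rrm2, Cdc6, Pcna and Mcm2 fell by 2.92, 2.66, 2.03 and 1.14 on the log2 scale. The lists were chosen with earlier results of these data known.

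Other cell types were present in unequal amounts. Mean log2(FPKM + 1) of 10 lens markers was 4.15 to 4.20 in the E10.5 libraries and 12.4 to 12.7 at E16.5, against 0.58 to 0.67 in the whole body. Lim2 was listed at 0 in the whole body. Summed FPKM of erythroid markers (9 of 10 in the table) ran from 2186 to 5000 at E10.5, 3260 to 7395 at E12.5, 139 to 339 at E14.5, 69.6 to 148 at E16.5 and 7479 to 9572 in the whole body. Macrophage markers (11 of 11) summed to 136 to 163, 109 to 212, at most 22.6, 8.46 to 18.3 and 41.0 to 45.7 in the same order. Periocular mesenchyme markers (10 of 11) summed to 378 to 2920, 432 to 1210, 184 to 216, 180 to 243 and 1662 to 1855. Endothelial markers (10 of 10) summed to 568 to 638, 278 to 537, 88.8 to 163, 103 to 166 and 312 to 318. Neural retina markers (10 of 10) summed to 1232 to 1465, 434 to 663, 249 to 291, 162 to 170 and 221 to 242, with Atoh7 at 0 at E10.5. Pigment cell markers (3 of 6) summed to 17.8 to 62.8, 16.1 to 79.5, 0.95 to 2.04, 3.88 to 11.8 and 2.08 to 3. In the lens these sums were thus lower from E14.5 on than before. Variant genes fell in each interval, 5 over the first, 6 over the second and 2 over the last. Male germ cell markers, included because that tissue has its own histones, were 0 of 6 in the table. The part of other cell types in the falls of variant and related genes was not tested. Liver markers (7 of 7), with Fgb at 0 in all lens stages from E12.5 on, stood apart in replicates 1 and 3 at E10.5, with means of 4.80 and 5.48 against 1.56 in replicate 2. Leaving out those 2 libraries left 1 library at E10.5, which limma then assumed to vary like the other groups. Fitted so, 12 replication-type genes rose and 3 fell from E10.5 to E16.5, and 0 variant genes in place of 1 were lower at E10.5 than in the whole body.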

How the data were processed

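RNA was sequenced from 15 libraries, 12 of lens and 3 of whole body, in 5 groups of 3. Per the submitters' processing notes, Trimmomatic, TopHat2 2.0.9, Cufflinks and Cuffnorm were used with the mm10 build; the deposited table holds FPKM of 48306 assembled transcripts, normalized by the authors. Read depth is unknown, since the values are not counts; summed FPKM ran from 707562 to 1629915 a library, and the number of libraries limits the precision. Transcripts of class x (antisense, 172) were left out and FPKM summed by symbol. Of reference transcripts, 99.1% were found in GENCODE vM21 (mm10), 96.4% with the same symbol. Whether counting used strand is not given in the sources used here.

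Genes at 1 FPKM or more in at least 3 libraries were kept, 80 fell below this, and 3 listed at 0 beside a replicate of 50 FPKM or more were left out, which left 14532; all 26 histone genes passed. limma 3.58.1 (R 4.3.3) was fitted to log2(FPKM + 1) with 1 mean per group and the mean-variance trend, two-sided, over all 15 libraries, with Benjamini-Hochberg adjustment over all genes and a threshold of 0.05. The fit was checked on simulated data. Python 3.11.15, pandas 2.3.3 and matplotlib 3.10.9 were used for the rest. The members and lists were chosen with earlier results of these data known, and lists were described by counts and medians, with no set test. Values are given for every histone gene; of related genes, those named were a fixed handful (Slbp, Npat, Chaf1a, Asf1a, Asf1b, Hira, Pcna and Mcm2) and up to 2 from either end of each list's called genes from E10.5 to E16.5. Ipo4 and Nap1l1 complete a count of 3. Alternatives changed the pseudocount, filter, scaling, trend, transcripts used, groups in the fit, replicate block and libraries. The most abundant transcript of a gene was that with the highest mean over all 15 libraries, which need not be the largest in each group. Leaving out replicates 1 and 3 at E10.5 together was chosen after seeing the data. Replicates are called biological by the labels.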

Additional observations from a re-analysis of the deposited data

How the results depend on the processing

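The labels tie no replicate number to a litter or day. Over 30 pairs of same-numbered libraries from different groups, deviations correlated between -0.095 and 0.24, with 4 pairs over 0.1. Those 4 lay between lens stages from E12.5 on. Differently numbered libraries were not compared, so shared processing was not tested. With the replicate block the only count that moved by over 1.5 times was that of variant genes lower at E10.5 than in the whole body, 0 in place of 1. Apart from left-out replicates, 323 counts and class values kept their size and 41 moved; of single genes 2174 kept direction and call, 47 lost and 39 gained a call and 28 changed sign. The cause was not tested for any of these. Equal totals without the crystallins moved the median of all genes by -0.38 from E10.5 to E16.5, by -0.11 and -0.21 over the first and second intervals, and by -0.18, -0.40 and -0.48 against the whole body from E12.5 on; quantile normalization moved it by 0.10 and 0.11 at E10.5 and E14.5 against the whole body. The share of calls that were higher from E10.5 to E16.5 was 50.3% and, without the crystallins, 30.6%; it went from 53.1% to 40.5% and from 48.7% to 21.5% over the first and second intervals, from 59.7% to 35.1% over the last, and from 46.5%, 45.6% and 45.9% to 35.2%, 28.8% and 28.0% against the whole body from E12.5 on. Quantile normalization gave 54.1% in place of 44.1% at E10.5 against the whole body, and 46.5% over the last interval. Changes of variant genes are best read against these shifts.

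At E10.5 against the whole body, replication-type genes lower were 1 with a pseudocount of 0.1, without crystallins, without the trend or with only the 2 groups. Variant genes higher there were 3 with the most abundant transcript only, and those lower were 3 under quantile normalization, 2 without crystallins, 3 with the most abundant transcript, and 0 without the trend, with reference transcripts only, with only the 2 groups or without replicates 1 and 3 at E10.5. Quantile normalization gave 0 replication-type genes lower than the whole body at E12.5, E14.5 and E16.5 and 0 lower from E12.5 to E14.5. It gave 8 variant genes lower at E14.5 than in the whole body and 8 lower from E10.5 to E12.5. Without crystallins 8 variant genes were lower than the whole body at E14.5, 1 was higher there, 1 was higher at E16.5, 1 rose from E10.5 to E16.5 and 0 rose from E12.5 to E14.5. From E12.5 to E14.5, 3 variant genes fell with the most abundant transcript or with only the 2 groups. Over the last interval, 1 replication-type gene fell without crystallins or without the trend; variant genes that rose were 0 with only the 2 groups, and those that fell were 0 with only the 2 groups and 1 under quantile normalization, without the trend, with reference transcripts or without replicates 1 and 3 at E10.5.

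The log2 ratio of the replication-type sums, E16.5 over E10.5, was 2.88, and was 2.78 under quantile normalization, 2.40 without crystallins, 2.83 with size factors and 2.84 with the most abundant transcript. That of the variant sums was -0.64, and was -1.15 under quantile normalization and -1.12 without crystallins. The change of log2 H3f3b over H3f3a was -0.93, and -0.62 with the most abundant transcript.

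When each replicate was left out in turn, at E10.5 against the whole body 0 to 1 replication-type and 0 to 1 variant genes were lower; against the whole body at E12.5, 3 to 5 variant genes were lower. From E10.5 to E12.5, 1 to 2 replication-type genes fell; from E12.5 to E14.5, 3 to 6 variant genes fell; over the last interval, 0 to 1 replication-type and 1 to 3 variant genes fell. Ranges of the 3 log2 quantities were 2.87 to 2.90, -0.73 to -0.58 and -0.98 to -0.84.

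Signs changed as follows, where the main or the alternative fit called the gene. Under quantile normalization H1f0 was at -0.46 and -0.56 against the whole body at E14.5 and E16.5 and -0.28 from E10.5 to E16.5; H3f3a was at -0.34, -0.58 and -0.85 against the whole body at E10.5, E12.5 and E14.5 and -0.27 from E12.5 to E14.5; Hist1h2aj was at 0.61, 0.26 and 0.082 against the whole body at E10.5, E14.5 and E16.5; and Hist1h4k was at 0.51, 0.19 and 0.067 at E12.5, E14.5 and E16.5. Without crystallins H1f0 was at -0.33 and -0.43 against the whole body at E14.5 and E16.5 and -0.20 from E10.5 to E16.5, H1fx at -0.41 from E10.5 to E16.5, H3f3a at -0.39 against the whole body at E14.5 and Hist1h4i at -0.38 at E16.5. With the most abundant transcript H2afz was at -0.56 at E10.5 against the whole body and 0.26 from E10.5 to E12.5, H3f3a at -0.53, -0.72 and -0.65 against the whole body at E10.5, E12.5 and E14.5, and Hist2h2be at -0.84 and -0.69 against the whole body at E14.5 and E16.5, -0.21 from E10.5 to E12.5 and -1.37 from E10.5 to E16.5.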
